A study of Saccharomyces cerevisiae with 8 samples.

Results

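The 10 histone genes of budding yeast, of 6413 nuclear genes in the R64 annotation, were taken by name: *HTA1* and *HTA2* (histone H2A), *HTB1* and *HTB2* (H2B), *HHT1* and *HHT2* (H3), *HHF1* and *HHF2* (H4), *HTZ1* (the H2A variant H2A.Z) and *HHO1* (the linker histone H1). For each gene, peaks were counted in the reading frame, in the 500 bp upstream of the start codon and in the 500 bp downstream of the stop codon. The 8 core histone genes lie in 4 divergently transcribed pairs, so the windows of a pair share most of 1 intergenic region, and that shared promoter was also examined by itself. In what follows a locus is a pair or a single gene with 500 bp on each side, which gives 6 loci.

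The peaks came from ChIP-seq of 3Flag-Cse4, the tagged budding yeast CENP-A, the H3 variant of centromeric nucleosomes, and from the input chromatin cut with micrococcal nuclease (MNase), which maps nucleosomes. There were 4 W303-derived strains with 1 input and 1 ChIP library each. In all 4 strains the endogenous *CSE4* gene was deleted and *3Flag-CSE4* was expressed from its own promoter at *URA3*. *3Flag-CSE4* carried nothing else, and *psh1Δ 3Flag-CSE4* also lacked Psh1, the ubiquitin ligase that targets Cse4 for proteolysis. *pGAL-3Flag-CSE4* carried an additional copy under the *GAL* promoter at *LEU2*, and *psh1Δ pGAL-3Flag-CSE4* carried that copy and lacked Psh1. Where values are given for all 4 strains, they stand in this order. All 4 cultures were asynchronous, grew in lactic acid medium and received 2% galactose for 2 h. The strains address where Cse4 goes when it is overproduced and not degraded. With 1 library per strain and type, no difference between strains can be set against replicate error, and all values below are descriptions of these libraries.

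The core histone genes are transcribed around S phase. Repeated upstream activating elements in the shared promoters of the core histone pairs are bound by the activator Spt10 and by the cell cycle factor SBF, and the HIR corepressor acts on all pairs except *HTA2-HTB2*. The products of these genes are what Cse4 is assembled with or replaces: a Cse4 nucleosome holds H2A, H2B and H4, and Cse4 takes the place of H3.

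The peak lists held 40108, 31268, 39937 and 18908 input peaks and 17, 66, 4043 and 14199 ChIP peaks for the 4 strains. Median peak widths were 71.0 to 101 bp. The lists gave positions only, with no heights. The *psh1Δ pGAL-3Flag-CSE4* input list was the shortest, although the study's sequencing table lists more mapped input reads for it than for *3Flag-CSE4* or *psh1Δ 3Flag-CSE4*, and fewer than for *pGAL-3Flag-CSE4*. Why that list is short was not tested. ChIP peaks were called by the authors above 1 height common to all strains, on a signal from which the input had been subtracted.

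In *psh1Δ pGAL-3Flag-CSE4*, each of the 4 shared promoters carried exactly 2 Cse4 peaks, 1 near each start codon, and the stretch between them had none. The sequence of that central stretch is shown because all 5 Spt10-type matches of these promoters lie in it. The sequences below are the R64 forward strand, with capitals for matches to TTCC followed after 6 bases by TTC (the form bound by Spt10), GCGAAAAA (the start of the histone upstream activating sequence) and CGCGAAA (bound by SBF), on either strand. The *HTB1-HTA1* stretch is chrIV:914961-915160, taken from within a longer gap, and the others are the whole gaps at chrII:236011-236249, chrII:255911-256129 and chrXIV:576261-576549.
HTB1-HTA1: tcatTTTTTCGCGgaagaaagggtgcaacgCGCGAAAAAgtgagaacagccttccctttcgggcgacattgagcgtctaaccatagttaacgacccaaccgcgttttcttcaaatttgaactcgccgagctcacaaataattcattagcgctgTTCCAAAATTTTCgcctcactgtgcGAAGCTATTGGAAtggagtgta
HTA2-HTB2: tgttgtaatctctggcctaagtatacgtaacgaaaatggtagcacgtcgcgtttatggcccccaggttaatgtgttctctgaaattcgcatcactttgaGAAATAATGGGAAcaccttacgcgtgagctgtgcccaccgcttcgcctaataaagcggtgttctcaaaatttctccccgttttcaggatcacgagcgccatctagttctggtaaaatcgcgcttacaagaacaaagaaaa
HHF1-HHT1: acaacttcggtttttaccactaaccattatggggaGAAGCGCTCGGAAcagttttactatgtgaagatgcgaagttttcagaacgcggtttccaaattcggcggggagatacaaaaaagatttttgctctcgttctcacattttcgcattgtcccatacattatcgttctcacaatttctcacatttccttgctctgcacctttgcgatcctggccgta
HHT2-HHF2: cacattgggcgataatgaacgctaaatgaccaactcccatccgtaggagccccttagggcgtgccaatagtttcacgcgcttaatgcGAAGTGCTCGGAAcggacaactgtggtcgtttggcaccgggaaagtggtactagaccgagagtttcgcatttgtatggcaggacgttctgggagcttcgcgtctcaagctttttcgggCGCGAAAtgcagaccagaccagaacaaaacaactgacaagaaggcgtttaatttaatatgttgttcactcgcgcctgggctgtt
The first stretch is 54.0% A and T, and the whole gaps that follow are 54.8%, 56.6% and 49.1%. The whole *HTB1-HTA1* gap is 59.0%. The Cse4 peaks beside the gaps are 66.3% and 65.9% at *HTB1-HTA1* and 70.9% and 71.8% at *HTA2-HTB2*. They are 56.8% and 56.0% at *HHF1-HHT1* and 49.3% and 70.2% at *HHT2-HHF2*, so not every peak is richer in A and T than its gap.

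The gaps between the 2 Cse4 peaks were 519 bp at *HTB1-HTA1*, 239 bp at *HTA2-HTB2*, 219 bp at *HHF1-HHT1* and 289 bp at *HHT2-HHF2*, or 63.5%, 34.2%, 33.9% and 42.8% of each region. All 4 were wider than 129 bp, the median gap of the 195 other divergent regions of 500 to 1000 bp with 2 peaks centred inside them. The Spt10-type match was found in 4 of 4 histone promoters, at 5 sites, and in 23.5% of the 550 other divergent regions of 500 to 1000 bp and 13.8% of all 500 bp upstream windows. Of the 5 sites, 5 lay in the gap and 0 under a Cse4 peak. These are gaps between Cse4 peaks and can hold input peaks. The *HTA2-HTB2* match lay under a *3Flag-CSE4* input peak, and the other matches did not. Over the 123 matches in the other regions that had at least 2 peaks, 23.6% lay in the widest gap and 61.0% touched a peak, with the widest gap taking a median of 18.9% of the region.

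GCGAAAAA occurred at 3 sites in 2 promoters and in 9.64% of the other regions. Of these sites, 2 lay in the *HTB1-HTA1* gap, under a *3Flag-CSE4* input peak, and 1 lay 80 bp from the *HHF2* start codon under a Cse4 peak. CGCGAAA occurred at 3 sites in 2 promoters, all in the gap, and in 8.18% of the other regions; at *HTB1-HTA1* it overlaps both GCGAAAAA matches. The TATA box form TATAAA was found in 3 of the 4 promoters and in 69.5% of the other regions, and of its 10 sites 1 lay in a gap and 1 under a Cse4 peak. These are matches of letters, not measured binding.

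In *pGAL-3Flag-CSE4*, with Psh1 present, only *HTA2-HTB2* had a Cse4 peak on each side of its promoter. Both are shown here because they are the only pair of promoter peaks among the 4 regions in that strain. They lie at chrII:235900-235970 and chrII:236310-236400, and are 71 and 91 bp wide and 70.4% and 75.8% A and T. They hold none of the Spt10, SBF and GCGAAAAA matches, of which this promoter has only 1, the Spt10-type match in the gap.
HTA2 side: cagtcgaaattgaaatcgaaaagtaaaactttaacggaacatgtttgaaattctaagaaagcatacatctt
HTB2 side: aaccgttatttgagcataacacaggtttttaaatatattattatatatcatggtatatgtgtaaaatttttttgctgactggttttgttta
Their centres lay 143 bp upstream of *HTA2* and 137 bp upstream of *HTB2*, and 0 and 15 bp from the nearest *3Flag-CSE4* input peak centres.

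**Figure D1:**
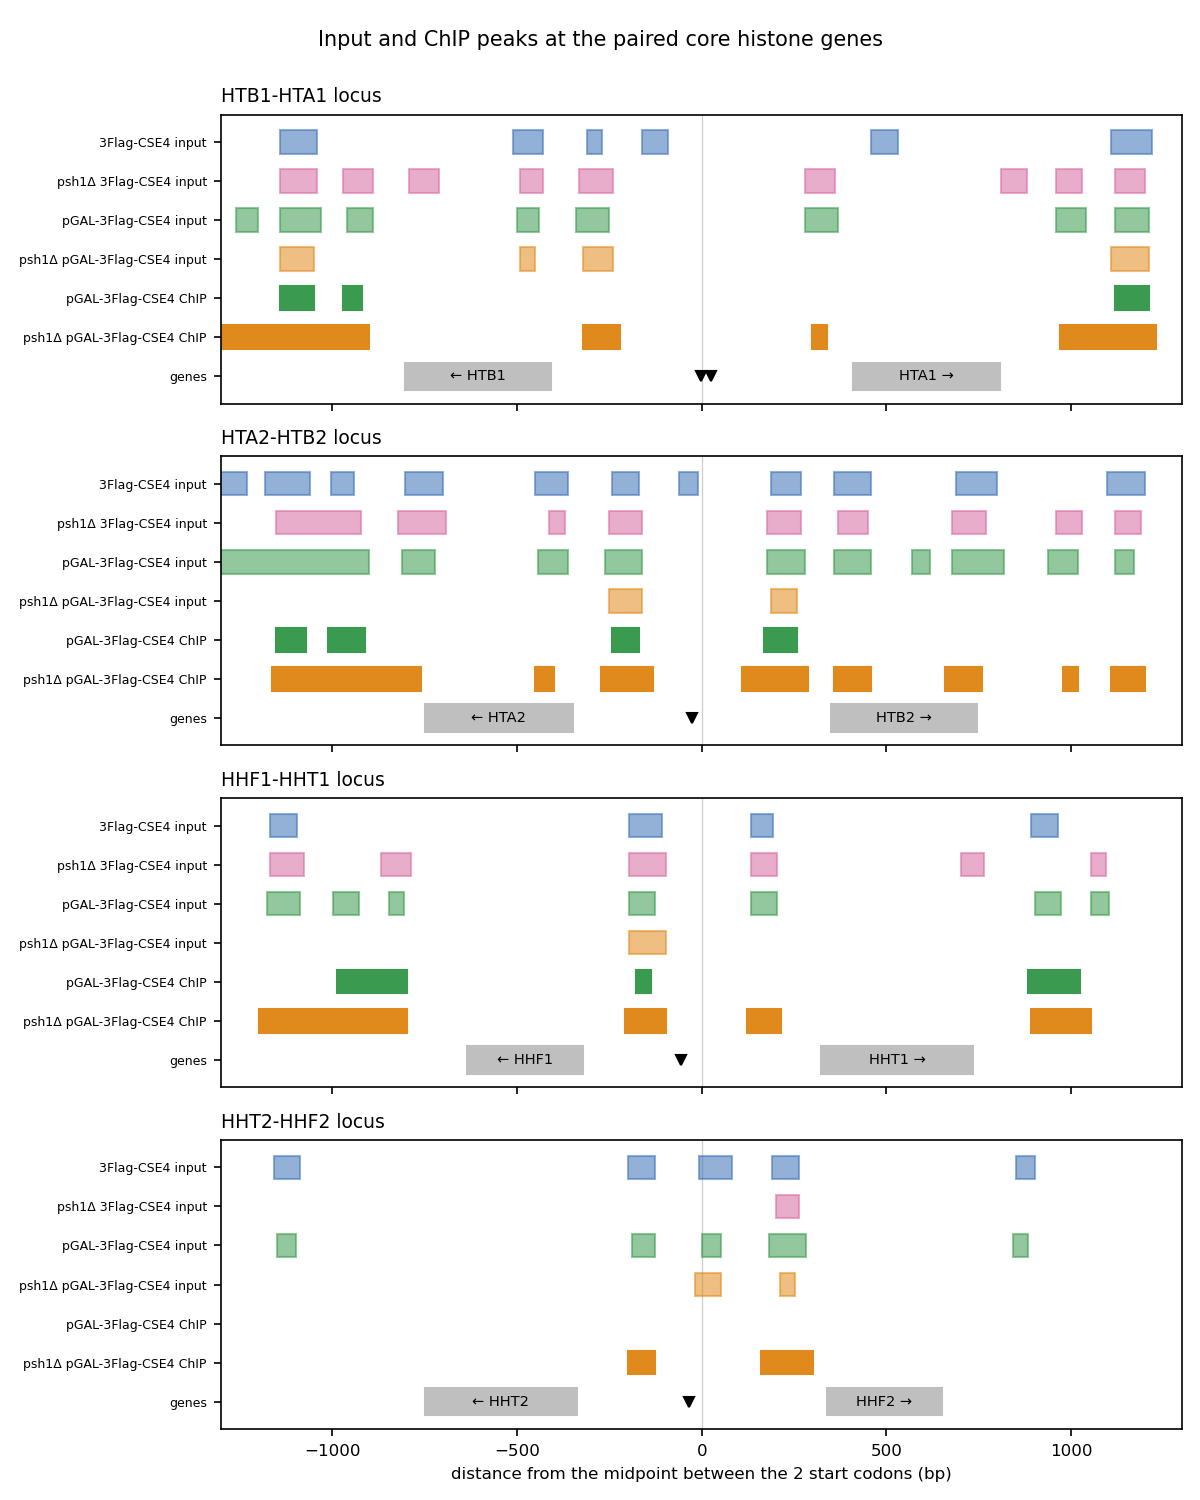
Peaks at the 4 core histone loci, with distance in bp from the midpoint between the 2 start codons on the x axis and 1 row for each input list and each overexpressing ChIP list (the other 2 ChIP lists have 0 peaks here). Boxes are peaks (paler for input), grey boxes are genes, and black triangles are Spt10-type matches. In the bottom ChIP row each promoter has 1 peak on each side of the triangles, and HHT2-HHF2 has no ChIP peak elsewhere.

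The *HTB1-HTA1* pair encodes H2B and H2A on chromosome IV, with *HTB1* (YDR224C) at chrIV:914317-914712 on the minus strand and *HTA1* (YDR225W) at chrIV:915530-915928 on the plus strand. Its promoter of 817 bp was covered by input peaks over 13.7%, 21.1%, 22.3% and 9.91% of its length in the 4 strains, and by ChIP peaks over 0%, 0%, 0% and 17.4%. The last value was higher than in 7.09% of the other divergent regions, the lowest rank of the 4 histone promoters. The Cse4 peaks of *psh1Δ pGAL-3Flag-CSE4* were centred 138 bp upstream of *HTB1* and 90 bp upstream of *HTA1*. The first was 20 bp from a *3Flag-CSE4* input centre, while the second, a peak of 41 bp, was 175 bp from one, although the *psh1Δ 3Flag-CSE4* and *pGAL-3Flag-CSE4* inputs each had a peak overlapping it.

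The *HTA2-HTB2* pair, the second source of H2A and H2B, lies on chromosome II with *HTA2* (YBL003C) at chrII:235394-235792 on the minus strand and *HTB2* (YBL002W) at chrII:236492-236887 on the plus strand. It is close to the centromere, at 2.41 kb for *HTA2* and 1.32 kb for *HTB2*. Input peaks covered 29.0%, 26.0%, 28.9% and 23.2% of its 699 bp promoter in the 4 strains, a narrow range. ChIP peaks covered 0%, 0%, 23.2% and 46.1%. In *pGAL-3Flag-CSE4* that share was higher than in 96.0% of the other divergent regions, and in *psh1Δ pGAL-3Flag-CSE4* than in 43.6%. The 18 other divergent regions of this size within 10 kb of a centromere had a mean cover of 6.98% in *pGAL-3Flag-CSE4*, against 5.89% for the 532 elsewhere, and 55.6% and 47.4% of them had a peak. In *psh1Δ pGAL-3Flag-CSE4* the means were 56.8% and 46.6%.

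The *HHF1-HHT1* pair encodes H4 and H3 on the other arm of chromosome II, with *HHF1* (YBR009C) at chrII:255373-255684 on the minus strand and *HHT1* (YBR010W) at chrII:256331-256741 on the plus strand, 17.0 and 18.0 kb from the centromere. Its promoter of 646 bp had input cover of 23.5%, 26.6%, 22.0% and 15.6% and ChIP cover of 0%, 0%, 6.35% and 31.3%. The single *pGAL-3Flag-CSE4* peak was 41 bp wide and centred 166 bp upstream of *HHF1*. Being within 500 bp of both start codons, it put both genes in the count of upstream windows with a peak. In *psh1Δ pGAL-3Flag-CSE4* the centres lay 171 bp upstream of *HHF1* and 156 bp upstream of *HHT1*, 0 and 5 bp from *3Flag-CSE4* input centres.

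The *HHT2-HHF2* pair, the second source of H3 and H4, has *HHT2* (YNL031C) at chrXIV:575640-576050 on the minus strand and *HHF2* (YNL030W) at chrXIV:576727-577038 on the plus strand. Its promoter of 676 bp had input cover of 34.5%, 9.02%, 31.5% and 16.6%, the widest spread among the pairs, and ChIP cover of 0%, 0%, 0% and 31.4%. The 2 Cse4 peaks were centred 175 bp upstream of *HHT2* and 107 bp upstream of *HHF2*, 0 and 5 bp from *3Flag-CSE4* input centres. Another *3Flag-CSE4* input peak between them, also present in both overexpressing inputs, had no Cse4 peak over it in any library.

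Set beside the 550 other divergent regions, the histone promoters were covered less in every input. The means over the 4 promoters were 25.2%, 20.7%, 26.2% and 16.3% in the 4 strains, against medians of 35.0%, 31.5%, 40.2% and 28.2% in the other regions, of which 97.5%, 97.3%, 98.7% and 95.1% had a peak. All 4 promoters had an input peak in all 4 strains. For Cse4 in *psh1Δ pGAL-3Flag-CSE4* the mean was 31.5% against a median of 48.8%. There 4 of 4 histone promoters had a peak, and so had 97.8% of the other regions, 32.2% of them with 2 peaks. In *pGAL-3Flag-CSE4*, 2 of 4 had a peak, against 47.6% of the other regions, and the mean cover was 7.38% against a median of 0%. The other regions had a mean of 6.98% within 10 kb of a centromere and 5.89% elsewhere. Of the histone promoters *HTA2-HTB2* had 23.2%, *HHF1-HHT1* 6.35% and the other two 0%. In the shared promoters, lower input cover stood beside lower Cse4 cover in *psh1Δ pGAL-3Flag-CSE4*. The 500 bp downstream windows of that strain had lower input cover beside higher Cse4 cover. Their median input cover was 0% for members and 13.8% for all genes, and their median Cse4 cover 51.6% and 29.4%. In *pGAL-3Flag-CSE4* the mean of the histone promoters was above those of the other regions only through *HTA2-HTB2*. Over the 500 bp upstream windows in that strain, mean Cse4 cover was 4.86% for members and 7.97% for all genes. The part of input cover in either strain was not tested.

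The 3 other divergent regions most like the mean of the histone promoters over the 8 covered shares, by Euclidean distance, were *YGK3-RPL25* at 6.07 percentage points, *DPI8-MRS3* at 10.9 and *NUP1-KTR1* at 11.1. The histone promoters themselves lay 7.56 (*HHF1-HHT1*), 17.5 (*HHT2-HHF2*), 21.0 (*HTB1-HTA1*) and 23.6 (*HTA2-HTB2*) percentage points from their mean. Of the 4, 3 lay farther from their mean than these 3 regions, which were picked as the nearest of 550. That selection makes the comparison uninformative on how alike the histone promoters are, and the typical distance of the 550 is not given.

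**Figure D2:**
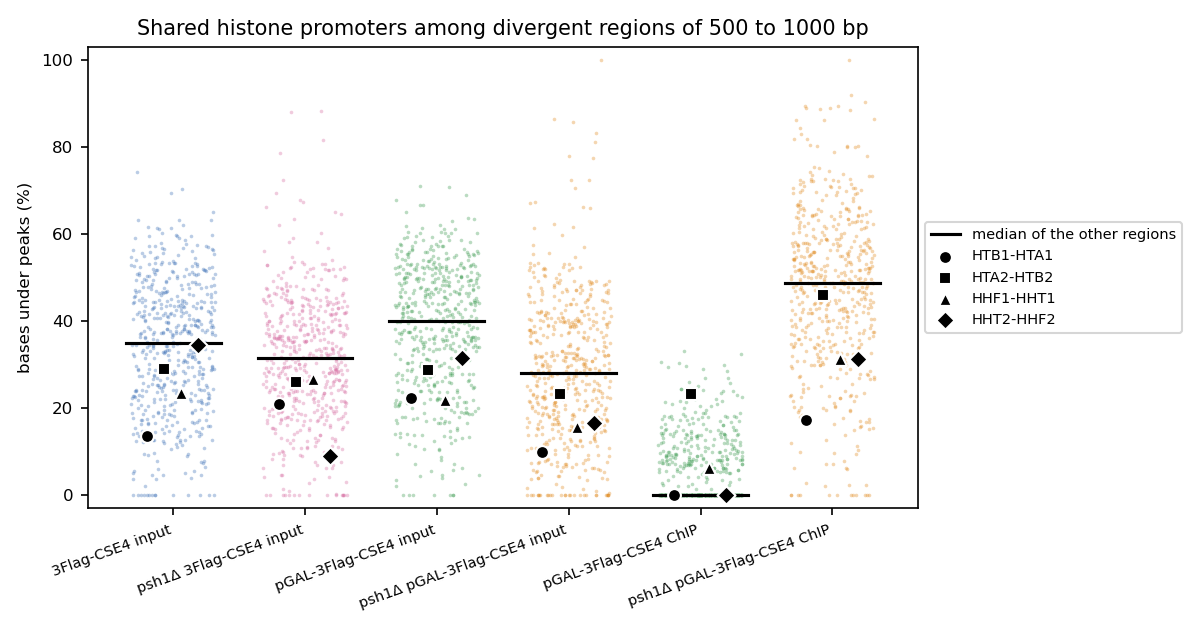
Share of bases under peaks (y axis, %) in 550 divergent intergenic regions of 500 to 1000 bp (coloured points, spread sideways at random) and in the 4 shared histone promoters (black symbols), for 6 peak lists on the x axis. Black lines are medians of the other regions. The histone promoters lie below the line in the inputs and in the psh1Δ pGAL-3Flag-CSE4 ChIP, and HTA2-HTB2 stands high in the pGAL-3Flag-CSE4 ChIP at 23.2%.

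Both single genes lie on the minus strand and share their upstream region with another divergent gene. *HTZ1* (YOL012C, chrXV:303579-303983), which encodes the H2A.Z placed beside nucleosome-depleted promoters, lies head to head with *PLB3*. Input peaks covered 69.2%, 50.4%, 46.4% and 66.6% of its 500 bp upstream window in the 4 strains, the highest cover of the 10 genes in each input except *pGAL-3Flag-CSE4*. ChIP peaks covered 0%, 0%, 0% and 20.2% of it. The single *psh1Δ pGAL-3Flag-CSE4* peak was centred 87 bp upstream of the start codon and 20 bp from a *3Flag-CSE4* input centre. A wide input peak farther upstream, of 211 bp in *3Flag-CSE4* and still 201 bp wide in *psh1Δ pGAL-3Flag-CSE4*, had no Cse4 peak over it.

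*HHO1* (YPL127C, chrXVI:308828-309604), head to head with *NAN1*, had upstream input cover of 51.8%, 37.6%, 56.6% and 31.6% and upstream ChIP cover of 0%, 0%, 0% and 58.4%. The last was the highest upstream Cse4 cover of the 10 genes. In *psh1Δ pGAL-3Flag-CSE4* 3 Cse4 peaks reached that window, centred 6, 236 and 571 bp upstream of the start codon, the last with its edge only. The first spanned the start codon on a nucleosome seen in all 4 inputs.

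**Figure D3:**
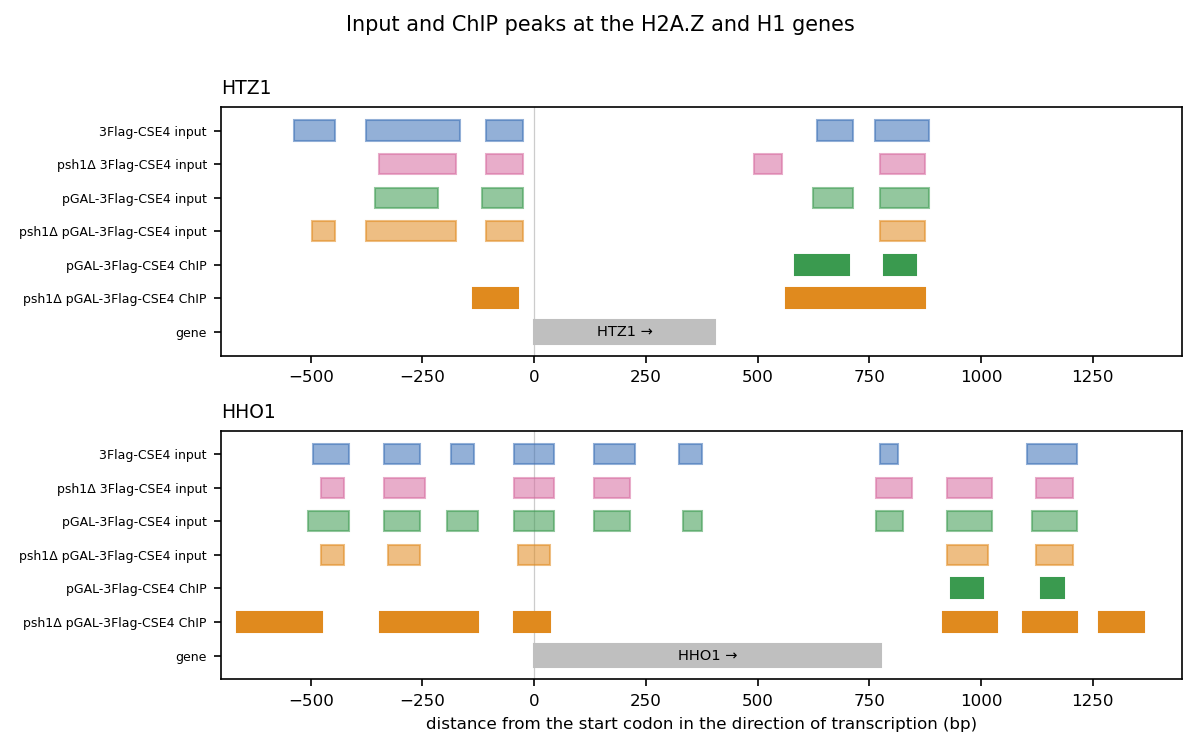
Peaks at HTZ1 and HHO1, with distance in bp from the start codon in the direction of transcription on the x axis and 1 row for each of the 4 input lists (paler boxes) and the 2 overexpressing ChIP lists. Grey boxes are the genes. HTZ1 has no peak of any list inside the gene, and both genes have pGAL-3Flag-CSE4 ChIP peaks past the stop codon but none upstream.

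Over the 10 upstream windows, members with at least 1 input peak numbered 10, 9, 10 and 9 in the 4 strains, where 92.8%, 92.3%, 93.9% and 87.2% of all nuclear genes had one. The members without were *HHT2* in *psh1Δ 3Flag-CSE4* and *HTA1* in *psh1Δ pGAL-3Flag-CSE4*, and *HTA1* counted in *3Flag-CSE4* through 1 bp of its window only. ChIP peaks reached 0, 0, 4 and 10 of the 10 upstream windows, against 0.109%, 0.327%, 47.2% and 92.6% of all genes. The 4 were *HTA2*, *HTB2*, *HHF1* and *HHT1*, and with peaks under 50 bp left out only the first 2 remained. The counts were thus close to the share of all genes, while the median covered share of the upstream window in *psh1Δ pGAL-3Flag-CSE4* was 33.7% for members and 45.2% for all genes.

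Past the stop codon the members' Cse4 cover was above that of all genes. For *HTA1*, *HHF1*, *HTZ1* and *HHO1* the next gene lies in tandem, so this window is also on the upstream side of that gene. The comparison with all genes was not split by the orientation of the next gene. In *pGAL-3Flag-CSE4* 7 of 10 downstream windows had a Cse4 peak, against 40.7% of all genes. In *psh1Δ pGAL-3Flag-CSE4* it was 8 of 10, against 79.7%. The median covered share was 26.3% for members and 0% for all genes in *pGAL-3Flag-CSE4*, with means of 21.2% and 8.19%. In *psh1Δ pGAL-3Flag-CSE4* the medians were 51.6% and 29.4%. In *3Flag-CSE4* and *psh1Δ 3Flag-CSE4* 0 and 0 members had a downstream Cse4 peak, where 0.234% and 0.608% of all genes had one. Input peaks were present in 10, 8, 10 and 4 downstream windows, against 92.9%, 89.9%, 93.8% and 64.5% of all genes. Median downstream input cover was 37.4% for members and 48.6% for all genes in *pGAL-3Flag-CSE4*, and 0% and 13.8% in *psh1Δ pGAL-3Flag-CSE4*.

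*HTB1* had the highest downstream Cse4 cover in *psh1Δ pGAL-3Flag-CSE4*, at 80.8% of the window. It came from 1 peak of 561 bp in the 814 bp that separate *HTB1* from the convergent gene *CRF1*, where *pGAL-3Flag-CSE4* had peaks of 91 and 51 bp within 500 bp of *HTB1*. *HTA2* had a peak of 401 bp covering 95.3% of the 276 bp between it and the convergent gene *UTP20*. *HHF1*, with the tandem gene *FLR1* downstream, had a peak of 401 bp centred 363 bp past its stop codon. *HTA1*, followed in tandem by *ADK1*, had 1 of 261 bp. At *HTZ1*, followed in tandem by *HRD1*, the peak was 311 bp wide, over 2 narrower peaks of 71 and 121 bp in *pGAL-3Flag-CSE4*. Between *HHT1* and the convergent gene *IPP1*, *pGAL-3Flag-CSE4* had a peak of 141 bp that was 161 bp wide when Psh1 was also absent. *HHO1* had 3 downstream peaks in *psh1Δ pGAL-3Flag-CSE4*, against 2 in *pGAL-3Flag-CSE4*, in the 606 bp before *TBF1*.

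The exceptions were *HHT2* and *HHF2*, whose downstream windows had 0 Cse4 peaks in both overexpressing strains. Their regions to the next gene were 288 bp (*HHT2* to *SIW14*) and 166 bp (*HHF2* to *KTR5*), and had 0 input peaks in all 4 inputs. *HTB2*, 265 bp from *ECM15*, had 0 downstream peaks in *pGAL-3Flag-CSE4*. In *psh1Δ pGAL-3Flag-CSE4* it had 2, of 41 and 91 bp, and the edge of a peak inside the gene. The *HTA2* downstream window had the highest input cover, at 82.2% in *pGAL-3Flag-CSE4*, but this rests on an input peak of 2941 bp over *UTP20* that ends inside it. *3Flag-CSE4* had an input peak of 1851 bp in the same place. Peaks over 1000 bp were 0.135%, 0.240%, 0.218% and 0.116% of the 4 input lists, so these are rare shapes.

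**Figure D4:**
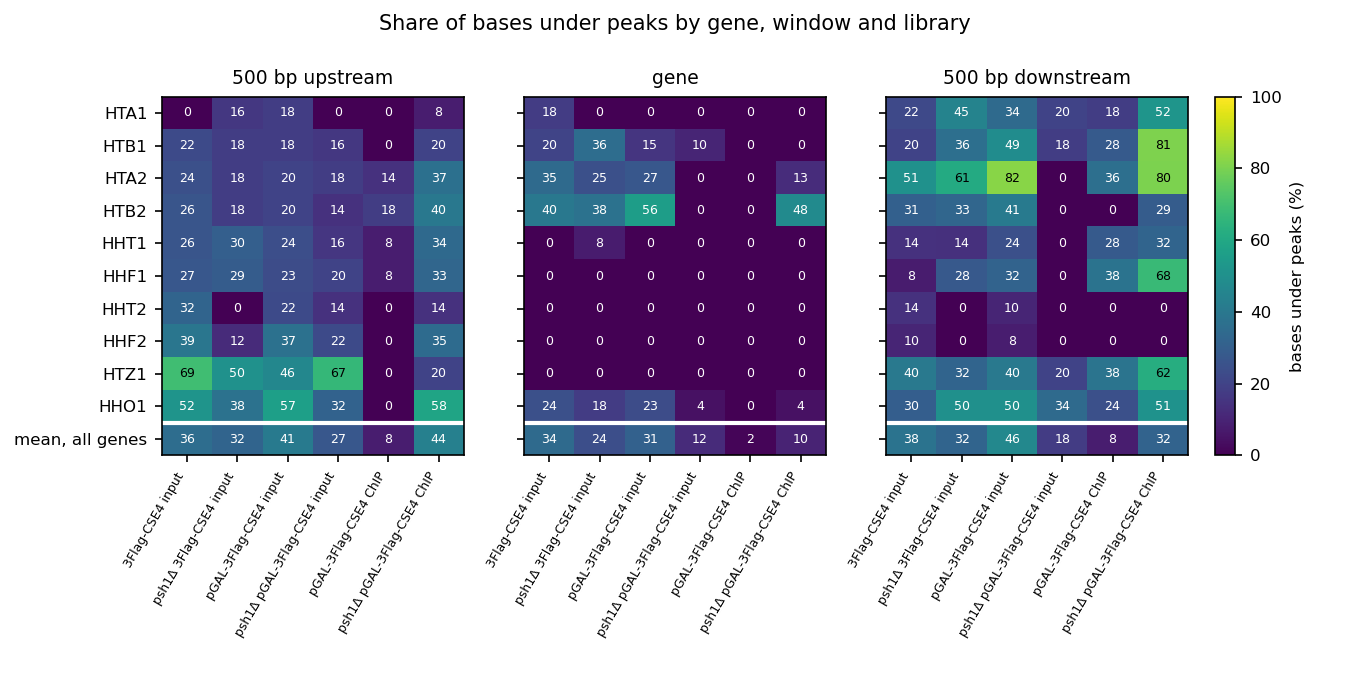
Share of bases under peaks (colour and printed number, %) for each histone gene (rows) and each of 6 peak lists (columns), in the 500 bp upstream, the gene and the 500 bp downstream. The bottom row is the mean over all 6413 nuclear genes. The gene panel is mostly 0 for HHT1, HHF1, HHT2, HHF2 and HTZ1, and the downstream panel holds the highest ChIP values, up to 80.8% at HTB1.

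The reading frames had few peaks of either kind. Input peaks were found in 5, 5, 4 and 2 of the 10 genes in the 4 strains, against 88.5%, 86.4%, 88.4% and 74.4% of all genes. Coding genes of like length did not have so few, since 86.9%, 84.4%, 87.9% and 70.8% of the 1464 coding genes of 300 to 800 bp had an input peak. *HHF1*, *HHT2*, *HHF2* and *HTZ1* had 0 input peaks in all 4 inputs, or 4 of 10 members against 8.13% of those 1464 genes. *HHO1* had 4, 3, 4 and 1 input peaks, the most of any member over the 4 lists together.

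Cse4 peaks reached 0, 0, 0 and 3 reading frames, against 0%, 0.156%, 21.1% and 72.1% of all genes. For coding genes of 300 to 800 bp the shares in the overexpressing strains were 24.2% with Psh1 and 74.7% without. *HTB2* had 2 peaks covering 47.7% of the gene, centred 58 and 358 bp from the start codon, and *HTA2* had 1 centred 77 bp from it. All 3 lay on *3Flag-CSE4* input peaks, at 0, 35 and 20 bp, and 0 of them on a *psh1Δ pGAL-3Flag-CSE4* input peak, that input having 0 peaks in both genes. *HHO1* was reached only by the peak over its start codon. The paralogous *HTA1* and *HTB1* had 0.

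Because the paired genes are near-identical copies and the reads were 24 bases, the uniqueness of each gene was read from the reference. Over the whole length without gaps, *HHF1* and *HHF2* were 97.4% identical, *HTA1* and *HTA2* 93.7%, *HHT1* and *HHT2* 93.2% and *HTB1* and *HTB2* 87.9%. The longest run of identical bases was 80 in the H4 genes, 74 in the H3 genes, 65 in the H2A genes and 35 in the H2B genes. The H4 run is shown on the coding strand, since a read of 24 bases from within it cannot be placed in 1 copy. It lies at chrII:255515-255594 in *HHF1* and chrXIV:576817-576896 in *HHF2*.
H4 run: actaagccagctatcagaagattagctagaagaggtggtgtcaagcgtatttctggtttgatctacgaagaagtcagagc
Words of 24 bases that occur once in the genome made up 48.1% of *HHF1* and of *HHF2*, 70.6% of the H3 genes, 80.6% of the H2A genes, 95.2% of the H2B genes and 100% of *HTZ1* and *HHO1*, where the median coding gene had 100%. Of 150-base fragments, 23.1% in the H4 genes, 10.9% in the H3 genes and 0.752% in the H2A genes had neither end unique. The flanks and shared promoters had 100% unique words.

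Low uniqueness and low input cover thus went together in the H3 and H4 genes, of which *HHT1* had 1 input peak in 1 strain and the others 0. These genes also had 0 Cse4 peaks inside the gene. The part of low uniqueness in their empty input and in their lack of Cse4 peaks was not tested. *HTZ1* also had 0 input peaks with 100% unique words, and *HTB1*, *HTA2* and *HTB2* had 0 to 3 per strain with 80.6% or 95.2%. The copies *HTA1* and *HTA2* had the same uniqueness but 1, 0, 0 and 0 against 2, 2, 2 and 0 input peaks.

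**Figure D5:**
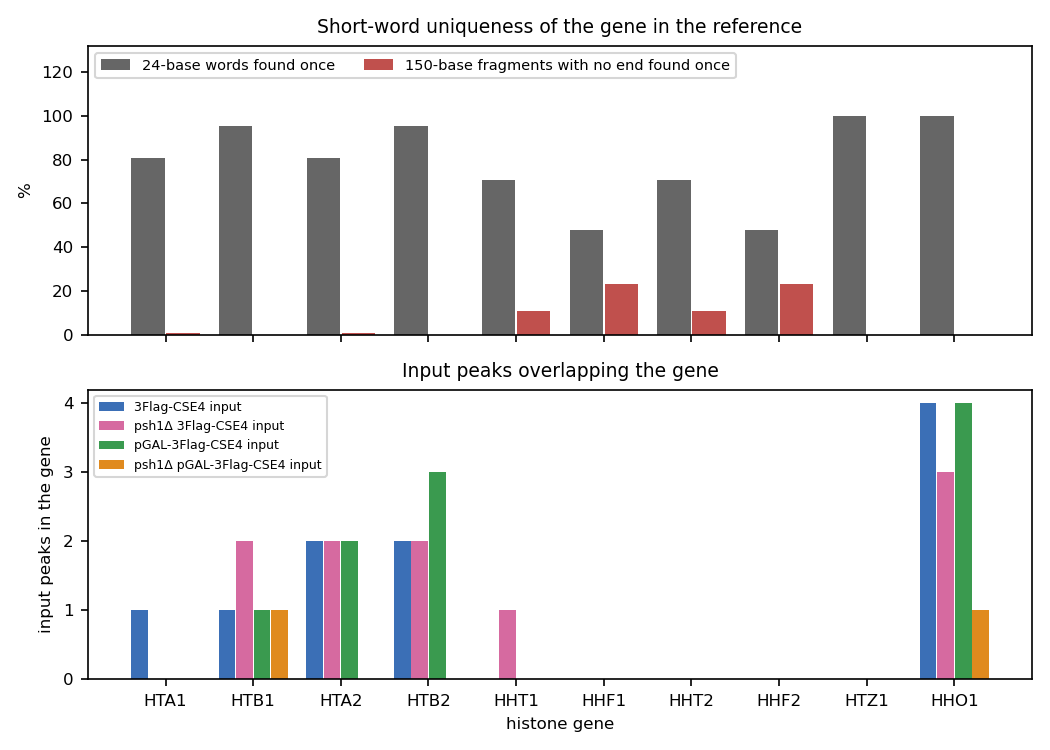
Top, for each histone gene on the x axis, the share (%) of its 24-base words found once in the genome (grey) and of 150-base fragments with no unique end (red). Bottom, the number of input peaks overlapping the gene in each of the 4 strains. HTZ1 has 100% unique words and 0 input peaks, and the 4 H3 and H4 genes have between 48.1% and 70.6% unique words and 1 input peak among them.

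Counted once each, the 6 loci held 39, 36, 43 and 18 input peaks in the 4 strains. Of the 39, an overlapping peak was found for 69.2% in *psh1Δ 3Flag-CSE4* (95% Wilson interval 53.6 to 81.4), 89.7% in *pGAL-3Flag-CSE4* (76.4 to 95.9) and, with both changes in *psh1Δ pGAL-3Flag-CSE4*, 43.6% (29.3 to 59.0). Over the nuclear genome the shares were 69.5%, 85.9% and 43.6%. The intervals cover counting error only and treat the 39 peaks as independent. Peaks grouped in 6 loci are not, so the intervals do not measure the spread between loci. The loci differed among themselves. In *psh1Δ pGAL-3Flag-CSE4* 2 of 11 were kept at *HTA2-HTB2*, both in the shared promoter under the 2 Cse4 peaks, and 4 of 5 at *HTZ1*. In *psh1Δ 3Flag-CSE4* 1 of 5 was kept at *HHT2-HHF2* and 10 of 11 at *HTA2-HTB2*.

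The same loci held 0, 0, 14 and 26 Cse4 peaks. Of the 14 in *pGAL-3Flag-CSE4*, 3 were in shared promoters and 0 in histone genes. Of the 26 in *psh1Δ pGAL-3Flag-CSE4*, 8 were in shared promoters and 3 in histone genes. Peak centres within 73 bp of a *3Flag-CSE4* input centre numbered 11 of 14 and 21 of 26, where the shares over all nuclear Cse4 peaks were 87.1% and 78.1% and 48.6% of nuclear bases lie that near to such a centre. Measured against the input of the same strain the numbers were 12 of 14 and 13 of 26, with 91.0% and 63.6% over all nuclear Cse4 peaks and 48.3% and 23.0% of bases. Median width was 86.0 bp among the 14 and 116 bp among the 26.

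Genes that regulate or chaperone histones were looked at in the same windows, as a list of 23 that includes the HIR corepressor subunits, *SPT10*, *SWI4*, the CAF-1 subunits, *ASF1*, *NAP1* and FACT subunits. In *psh1Δ pGAL-3Flag-CSE4* 23 of 23 had an upstream Cse4 peak, 21 a peak in the gene and 19 a downstream peak, where 92.6%, 72.1% and 79.7% of all genes had one. In *pGAL-3Flag-CSE4* the counts were 16, 10 and 7, against 47.2%, 21.1% and 40.7% of all genes. No background of like gene length was taken for this list. The median covered share inside the gene in *psh1Δ pGAL-3Flag-CSE4* was 4.12% for the list and 4.62% for all genes. The median covered share of their upstream windows was 49.6% in *psh1Δ pGAL-3Flag-CSE4*, where the histone genes had 33.7% and all genes 45.2%. The highest was 83.6% at *ASF1*, which encodes an H3-H4 chaperone, and the lowest 32.2% at *NAP1*, an H2A-H2B chaperone.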

How the data were processed

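Peak lists from 8 libraries were analysed and grouped by the deposited labels, with 1 list of input and 1 of anti-Flag ChIP for every one of the 4 strains. Per the authors' methods, paired reads of 24 bases were mapped to SacCer3 with BWA, proper pairs with a mapping score of at least 30 and inserts of 50 to 240 bp were kept, and DANPOS2 called the peaks. ChIP signal had the input subtracted, was scaled to centromeric coverage, and peaks were called at 1 height for all strains. Each deposited line gives a chromosome, start and end, and the deposited score column was 0 throughout. Depth per library entered no computation, so no precision beyond counting error can be given.

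Starts were converted to count from 1 and set against the R64 RefSeq sequence and annotation, with Python 3.11.15, numpy 2.4.6, pandas 2.3.3, scipy 1.17.1 and matplotlib 3.10.9. A peak counted with at least 1 bp in a window. Divergent regions run between the annotated starts of neighbouring genes that point away from each other, 1618 in all and 554 of 500 to 1000 bp. Non-coding genes, such as those for tRNA and snoRNA, were included as neighbours. Motifs and 24-base words were searched on both strands. Counting was tested on simulated windows. Alternatives were a window of 250 bp, peak centres inside the window, peaks of at least 50 bp, peaks within 50 bp merged, regions trimmed by 50 bp at each end and 6002 protein-coding genes only. Coding genes of 300 to 800 bp, wide peaks, regions within 10 kb of a centromere, gaps and matches in the other divergent regions, distances to downstream neighbours and the genome share of Cse4 peaks near input centres were added after seeing the data. Text names all 10 members, their neighbours, the regulators with the highest and lowest upstream Cse4 cover in *psh1Δ pGAL-3Flag-CSE4*, and the 3 divergent regions nearest to the mean of the histone promoters. Members and lists were chosen with earlier results of these data known. No test between strains was made.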

Additional observations from a re-analysis of the deposited data

Results flagged for a closer look

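At the *HTB1-HTA1* locus the number of input peaks moved in opposite directions when *PSH1* was deleted, without and with the *GAL* copy. It rose by 3 from *3Flag-CSE4* to *psh1Δ 3Flag-CSE4* and fell by 4 from *pGAL-3Flag-CSE4* to *psh1Δ pGAL-3Flag-CSE4*. At *HHF1-HHT1* it rose by 2 and fell by 6. The whole input lists went from 40108 to 31268 peaks without the *GAL* copy and from 39937 to 18908 with it, so both falls went the way of the whole list and both rises against it. The other loci did not reverse. On loss of *PSH1*, without and with the *GAL* copy, the counts went from 11 to 9 and from 10 to 2 at *HTA2-HTB2*. They went from 5 to 1 and from 5 to 2 at *HHT2-HHF2*, and from 8 to 7 and from 9 to 5 at *HHO1*. At *HTZ1* they went from 5 to 4 and stayed at 4. With 1 library each, these differences were not tested.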

How the results depend on the processing

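Each count of members with a peak, each mean covered share of the shared promoters and each share of all genes was recomputed under other choices. Of 160 recomputed values, 154 stayed within 1.5 times the count or share, or close to the mean, that is reported, and 6 did not. Values of 0 cannot rise under stricter choices, and merging cannot lower a count of members, so part of the 154 was fixed in advance. In the *psh1Δ pGAL-3Flag-CSE4* input, members with a peak in the gene fell from 2 to 1 with peak centres inside the window and to 1 with peaks of at least 50 bp, and members with a downstream peak from 4 to 2 with a window of 250 bp. In the *pGAL-3Flag-CSE4* ChIP, members with an upstream peak went from 4 to 2 with peaks of at least 50 bp. Among coding genes of 300 to 800 bp, an alternative added after seeing the data, 0.0683% had an upstream peak in the *3Flag-CSE4* ChIP (0.109% of all genes) and 0.0683% a peak in the gene in the *psh1Δ 3Flag-CSE4* ChIP (0.156%). The lists carry no heights, so a stricter peak threshold could not be applied. No paired analysis was possible because each strain has 1 library of a type and the result comes from no test.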
